A study of Mus musculus with 6 samples.

Results

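The genes Folr2, Lyve1, Cd163, Apoe, Pf4, Ms4a7, Stab1, Cbr2 and Cx3cr1 are used as identity markers of interstitial macrophages, the macrophages of the lung tissue between airspaces and vessels. They are 9 of the 26890 gene symbols in the count table, and were chosen by name with earlier results of these data known. They were measured in 6 libraries of mouse lung cells. All mice were wild-type C57BL/6. In the C1q group (3 libraries) the animals had received complement component C1q into the trachea at 20 µg per mouse, and in the Saline group (3 libraries) saline, by the treatment label. The lungs were taken at day 3 and digested with enzymes, the cells were separated on a Percoll density gradient, and the middle layer was lysed for poly(A) RNA. No sort of macrophages is described. Saline is named in the treatment label alone, since the protocol text, the same for all 6 samples, mentions C1q only. The labels give no age, and do not say that each library is a separate animal, so p-values measure the spread between these libraries, which may be technical.

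Interstitial macrophages are kept distinct from the alveolar macrophages of the airspace by their position and by their surface proteins. In mouse lung they are commonly divided into a Lyve1-high, MHC class II-low population found near blood vessels and a Lyve1-low, MHC class II-high population, in which Cx3cr1 is higher, found near nerves and airways. Folr2, Cd163, Pf4 and Cbr2 go with the first population in many tissues. Several of the 9 genes are also expressed by other lung cells, Lyve1 by lymphatic endothelium, Stab1 by some endothelium, Pf4 by megakaryocytes and platelets, Cbr2 by airway epithelium, Apoe by macrophages of several kinds and by stromal cells, and Cx3cr1 by monocytes and natural killer cells. In RNA from a whole cell suspension, fewer cells of a type and less RNA per cell cannot be told apart.

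Library totals were 2227619 to 3650793 counts in the C1q group and 2577429 to 2991562 counts in the Saline group. A count of 3 corresponded to 0.821 to 1.34 CPM across the 6 libraries. CPM is the count for every 1000000 counts, with library totals scaled by TMM, a factor that corrects for differences in composition. No pair of libraries held the same counts within sampling noise (chi-square over its degrees of freedom 4.74 to 14.6 in the 15 pairs), so none were merged. Without known molecular identifiers this does not show that they came from separate animals. Genes of the immediate-early response, which tissue digestion induces, summed to 6856, 6937 and 6909 CPM in the C1q libraries and 8541, 7989 and 7835 CPM in the Saline libraries. Their part in the results below was not tested.

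Sequencing was from transcript 5′ ends, so the sequence just before a gene's start is the one nearest to what was counted. The 250 bases before the start of 2 of the genes are printed, Pf4 because it had the lowest fold change of the 7 genes tested, and Stab1 because its window held 2 of the 3 motifs searched. They come from RefSeq on GRCm38.p6, which had promoters for 8 of the 9 genes (not Lyve1). Pf4 lies at chr5:90772185-90772434 on the plus strand and Stab1 at chr14:31168642-31168891 on the minus strand, both 5′ to 3′ and outside annotated exons. Capitals mark GAGGAA, the core bound by the macrophage factor PU.1 and other ETS proteins, or TGCTGA, a half-site of MAF proteins, on either strand.
Pf4: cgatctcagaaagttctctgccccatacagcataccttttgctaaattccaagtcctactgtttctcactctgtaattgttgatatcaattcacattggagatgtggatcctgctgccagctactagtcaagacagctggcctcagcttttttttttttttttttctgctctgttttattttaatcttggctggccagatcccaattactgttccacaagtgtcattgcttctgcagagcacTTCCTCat
Stab1: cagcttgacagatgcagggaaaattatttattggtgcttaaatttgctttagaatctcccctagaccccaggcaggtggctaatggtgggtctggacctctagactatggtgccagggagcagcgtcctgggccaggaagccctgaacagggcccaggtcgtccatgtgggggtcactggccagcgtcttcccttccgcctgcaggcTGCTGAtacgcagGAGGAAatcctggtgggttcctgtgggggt

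In Pf4 the reverse complement TTCCTC began 8 bases before the start, and in Stab1 TGCTGA began 43 and GAGGAA 30 bases before it. The 8 genes have 12 windows in all. A PU.1 core was in 5 of the 12 (of Pf4, Apoe, Cbr2 and Stab1), and in 23.3% of all 32851 RefSeq promoter windows of this length. A MAF half-site was in 3 of the 12 (of Folr2 and Stab1), and in 16.1% of all windows. The TATA box letters TATAAA were in 1 of the 12, of Apoe, and in 12.4% of all windows. The motifs do not overlap each other in these 2 sequences. These matches are descriptions of the letters only.

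None of the 9 genes was called higher or lower after C1q. Of the 9, 7 had enough counts to be tested, and 0 of these 7 passed edgeR's quasi-likelihood test after Benjamini-Hochberg adjustment over the 13473 genes tested, of which 0.0297% passed (smallest adjusted p among the 7 = 0.606). At an unadjusted p under 0.05 there were also 0 of the 7, where 8.16% of all genes tested lay under it (4.22% higher and 3.94% lower), and DESeq2 and limma-voom called 0. The log2 fold changes (C1q over Saline) were positive for 2 of the 7 and negative for 5, with a median of -0.13 beside -0.01 for all genes tested, of which 48.3% were positive and 51.7% negative. The C1q and Saline libraries did not overlap for Pf4 and Cx3cr1, both lower in C1q. That is 2 of the 7, where 14.1% of all genes tested did not overlap and 5.96% had all C1q libraries below.

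**Figure D1:**
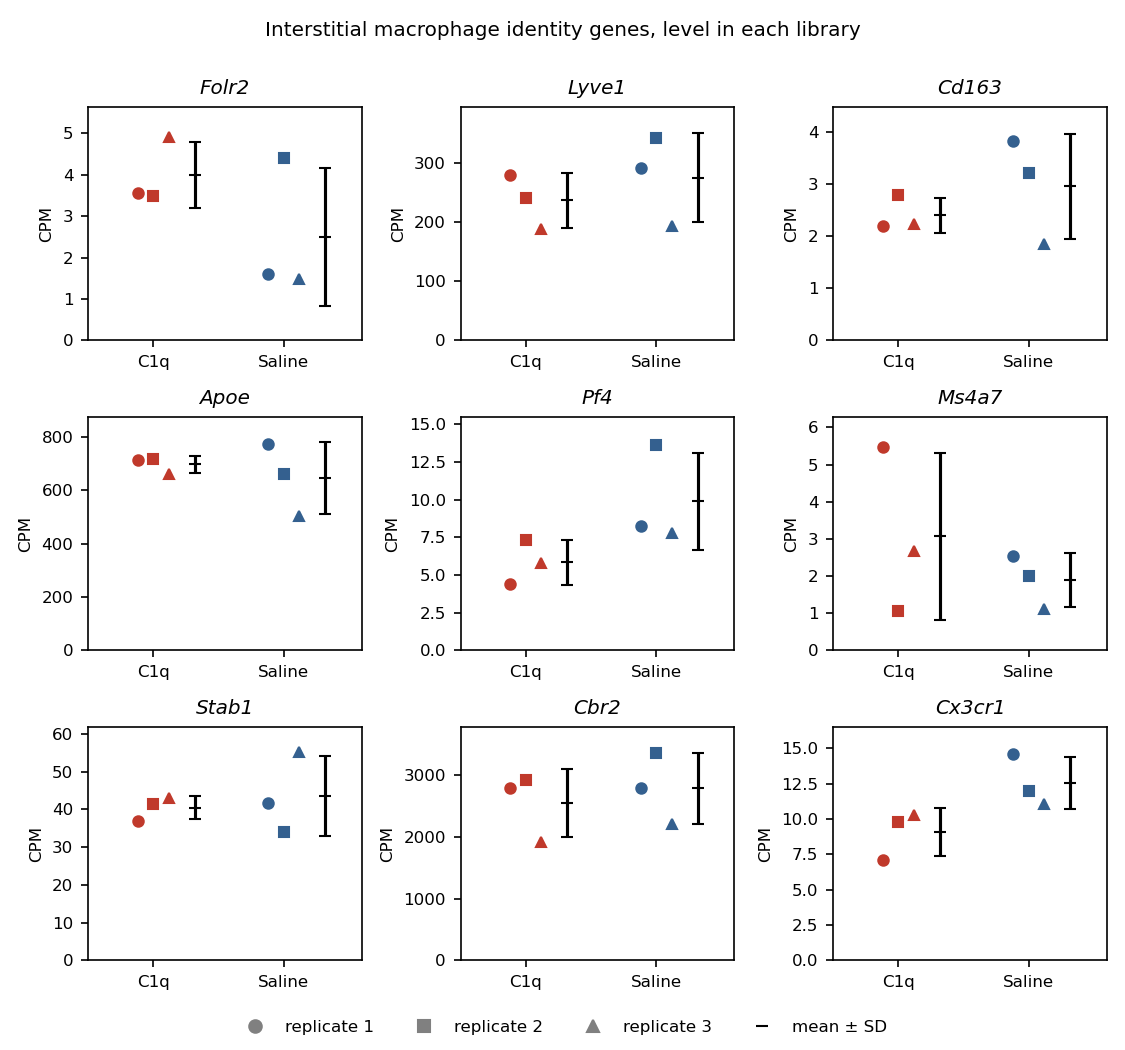
Level of each of the 9 genes in CPM (vertical axes, linear from 0) in the 3 C1q and 3 Saline libraries, with each library as a point and the mean ± SD beside the points. The C1q points lie below all Saline points for Pf4 and Cx3cr1, and the groups overlap for the other 7 genes.

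The genes of chemokine signalling had the lowest fold changes. Pf4 encodes platelet factor 4, a chemokine of platelet granules that some tissue macrophages also make. It lies on chromosome 5 from 90772435 to 90773383 (GRCm38, plus strand). It had 4.38, 7.33 and 5.81 CPM in C1q replicates 1 to 3, against 8.27, 13.6 and 7.76 CPM in Saline replicates 1 to 3. These levels rest on 13 to 21 counts per C1q library and 21 to 34 per Saline library. Every C1q library lay below every Saline library, the nearest pair being C1q replicate 2 and Saline replicate 3. The mean was 5.84 ± 1.48 CPM in C1q and 9.89 ± 3.25 CPM in Saline (SD, n = 3 each), a fold of 0.591 with a 95% interval of 0.342 to 1.02 (log2 fold change -0.76 ± 0.36 SE, adjusted p = 0.606). Without Saline replicate 2, the highest library, the log2 fold change was -0.46.

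Platelet genes give a reading beside Pf4. Of 12 genes of the megakaryocyte and platelet list, 5 passed the filter on low counts, and 0 of them passed the test. All 5 had a positive log2 fold change, where 48.3% of all genes tested did. Ppbp, the neighbouring platelet chemokine gene, averaged 5.73 ± 1.88 CPM in C1q and 5.26 ± 2.19 CPM in Saline, and the integrin gene Itga2b 3.90 ± 2.06 and 3.81 ± 1.00 CPM. Gp9, a platelet glycoprotein gene too low to be tested, had 1.47 ± 0.866 CPM in C1q and 1.97 ± 0.607 CPM in Saline, while Clec1b and Itgb3 stood at 0.22 ± 0.40 and 0.10 ± 0.22 on the log2 scale. The whole list summed to 55.0, 44.7 and 57.2 CPM in the C1q libraries and 61.1, 46.1 and 55.5 CPM in the Saline libraries, so the groups overlapped. Of all genes tested, 5.96% had all C1q libraries below all Saline libraries. Gp1bb, a subunit of the von Willebrand factor receptor, and Treml1, a platelet granule receptor, had too few counts to be tested. Both lay lower in every C1q library, on 2 to 14 counts per library for Gp1bb and 1 to 10 for Treml1. They were singled out after their values were seen, at 1.84 ± 0.832 CPM in C1q and 4.21 ± 1.15 CPM in Saline for Gp1bb, and 0.838 ± 0.477 and 2.64 ± 0.920 CPM for Treml1. No gene of the list was at 0 in all libraries. The part of platelet RNA in the Pf4 values was not tested.

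Cx3cr1 encodes the receptor of the membrane-bound chemokine Cx3cl1. It had 7.12, 9.78 and 10.3 CPM in the C1q libraries, against 14.6, 12.02 and 11.1 CPM in the Saline libraries. The C1q libraries all lay lower, with C1q replicate 3 and Saline replicate 3 close together. The means were 9.06 ± 1.70 CPM in C1q and 12.6 ± 1.84 CPM in Saline (SD, n = 3 each), with a log2 fold change of -0.49 ± 0.27 (95% interval -1.09 to 0.11, adjusted p = 0.634). The sign was the same in every alternative run, from -0.58 to -0.33. The ligand gene Cx3cl1 stood at 22.7 ± 3.50 CPM in C1q and 24.9 ± 5.99 CPM in Saline (log2 fold change -0.12 ± 0.22, adjusted p = 0.897). Cx3cr1 spans 119901616 to 120069879 on chromosome 9, minus strand, and 9 other genes lie within or across this span. The exons of one of them, Gm33858, overlap those of Cx3cr1, and it held 8 counts over all libraries.

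Cx3cr1 is also a marker of non-classical monocytes, and of that list 0 of 7 tested genes passed. Its sum was 1673, 1768 and 1774 CPM in C1q and 1785, 1915 and 1976 CPM in Saline, but 67.2% to 71.7% of it was Nr4a1, which encodes a nuclear receptor these monocytes need and is also an immediate-early gene. Without Nr4a1, a sum chosen after seeing the data, it was 477, 580 and 502 CPM in C1q and 528, 573 and 570.5 CPM in Saline, and the groups overlapped. Ace, the angiotensin-converting enzyme, which endothelium also expresses, averaged 410 ± 53.5 CPM in C1q and 440 ± 31.2 CPM in Saline, and Treml4 8.37 ± 3.18 and 6.21 ± 1.83 CPM. Eno3, a glycolytic enzyme, had the smallest p of the list at 12.4 ± 2.09 CPM in C1q and 19.5 ± 1.51 CPM in Saline (log2 fold change -0.64 ± 0.22, adjusted p = 0.56). Natural killer cell genes summed to 134, 56.9 and 76.0 CPM in C1q and 139, 94.96 and 67.3 CPM in Saline, overlapping. Of these genes the receptor gene Klri2 stood at -1.04 ± 0.49 on the log2 scale (adjusted p = 0.606). The part of either cell type in the Cx3cr1 values was not tested.

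The scavenger and matrix receptors showed no separation of the groups. Stab1 encodes stabilin-1, an endocytic scavenger receptor of macrophages and sinusoidal endothelium. It had 36.9, 41.6 and 42.9 CPM in the C1q libraries, against 41.7, 34.1 and 55.1 CPM in the Saline libraries. Both the highest and the lowest library were Saline. The log2 fold change was -0.11 ± 0.19 (95% interval -0.54 to 0.31, adjusted p = 0.886), and 0.09 without Saline replicate 3. Blood endothelial genes had 8 of 9 negative log2 fold changes and 0 called, with sums of 3669, 4285 and 3392 CPM in C1q and 4585, 4263 and 3979 CPM in Saline. Their smallest p-values were those of Ramp2, Kdr and Cdh5 (-0.43 ± 0.21, -0.33 ± 0.17 and -0.27 ± 0.16), and the part of endothelium in the Stab1 values was not tested. Stab1 lies on chromosome 14 from 31139013 to 31168641 on the minus strand, and its exons overlap those of Nt5dc2 on the other strand, a gene with 642 counts over all libraries. No source used here gives the strand handling, so reads in the overlap cannot be assigned from these counts.

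Lyve1 encodes a hyaluronan receptor of lymphatic endothelium and of perivascular macrophages. It had 281, 241 and 189 CPM in the C1q libraries and 291, 342 and 194 CPM in the Saline libraries, so the ranges overlapped over most of their width. The mean was 237 ± 46.2 CPM in C1q and 276 ± 75.2 CPM in Saline (SD, n = 3 each), a fold of 0.861 with a 95% interval of 0.613 to 1.21 (adjusted p = 0.793). The log2 fold change of -0.22 ± 0.22 kept its sign in every alternative, and ran from -0.41 without Saline replicate 3 to -0.03 without Saline replicate 2. Lyve1 lies on chromosome 7 from 110850607 to 110863239, minus strand, and no other annotated gene overlaps it. Has1, an enzyme that makes hyaluronan, averaged 88.8 ± 15.4 CPM in C1q and 48.7 ± 14.1 CPM in Saline, every C1q library being above every Saline one without a call (log2 fold change 0.85 ± 0.22, adjusted p = 0.405).

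Lymphatic endothelium was measurable beside Lyve1. Prox1, the transcription factor that defines it, averaged 5.75 ± 1.61 CPM in C1q and 6.02 ± 0.353 CPM in Saline, and Flt4, the receptor of VEGF-C, 22.2 ± 4.69 and 18.8 ± 3.00 CPM. The list of 6 genes summed to 212, 236 and 184 CPM in C1q and 181, 190 and 176 CPM in Saline. Mmrn1, a multimerin made by lymphatic endothelium and platelets, had the smallest p of the 6 (24.9 ± 6.45 CPM in C1q, 14.8 ± 2.49 CPM in Saline, log2 fold change 0.72 ± 0.25, adjusted p = 0.559), and 0 of the 6 passed. The median of the log2 fold changes was 0.21 over the 6, where Lyve1 had -0.22. Reln, next in p, stood at 0.55 ± 0.36. The part of these cells in the Lyve1 values was not tested.

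Cd163, the receptor by which macrophages take up haptoglobin-haemoglobin complexes, was too low to be tested. It had 2.19, 2.79 and 2.23 CPM in the C1q libraries and 3.82, 3.21 and 1.85 CPM in the Saline libraries. Summed over the group there were 21 counts in C1q, or 2.37 CPM of the raw library totals with a 95% Clopper-Pearson interval of 1.47 to 3.62. In Saline there were 25, or 3.04 CPM (1.97 to 4.49), and the intervals overlap. They cover counting error only, since reads without known molecular identifiers are not independent molecules. Cd163 lies on chromosome 6 from 124304656 to 124330527, plus strand. With no filter on low counts its log2 fold change was -0.27 ± 0.62 (adjusted p = 0.914).

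Of the genes that handle the haem cargo of Cd163, Hmox1, the haem-degrading oxygenase, averaged 119 ± 12.7 CPM in C1q and 66.5 ± 9.86 CPM in Saline. All C1q libraries lay above all Saline libraries and the gene was not called (log2 fold change 0.84 ± 0.16, adjusted p = 0.231). Slc40a1, the iron exporter ferroportin, had 4.49 ± 0.843 CPM in C1q and 6.30 ± 1.66 CPM in Saline (log2 fold change -0.48 ± 0.37, adjusted p = 0.728), and was named after its values were seen. Haemoglobin transcripts, a sign of red cell RNA, summed to 187, 82.4 and 37.5 CPM in C1q and 268, 115 and 138 CPM in Saline.

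Folr2 and Ms4a7, surface proteins with a narrower distribution, were also near the limit of the depth. Folr2 encodes folate receptor beta, which binds folate at the surface of tissue macrophages. It had 3.56, 3.49 and 4.92 CPM in the C1q libraries and 1.59, 4.41 and 1.48 CPM in the Saline libraries, on 10 to 13 and 4 to 11 counts. Saline replicate 2 lay among the C1q libraries, and the other Saline libraries lay below them. The fold was 1.61 with a 95% interval of 0.738 to 3.50 (adjusted p = 0.714), and the log2 fold change was 0.68 ± 0.51, or 1.34 without Saline replicate 2 (adjusted p = 0.4). Folr2 lies on chromosome 7 from 101839988 to 101857194, minus strand. Of the stretches of 36 bases in its transcripts, 55.8% are also in Gm10602, an opposite-strand gene with 11 counts over all libraries. Whether these stretches lie where the 5′ reads fall was not examined, so their effect on the Folr2 values is not known.

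Ms4a7 encodes a four-span membrane protein of mature macrophages. It had 5.48, 1.05 and 2.68 CPM in the C1q libraries and 2.55, 2.00 and 1.11 CPM in the Saline libraries. C1q replicate 1 stood above all others with 20 counts, and C1q replicate 2 was the lowest of the 6 with 3. The group sums were 29 counts in C1q, or 3.27 CPM (2.19 to 4.70), and 16 in Saline, or 1.94 CPM (1.11 to 3.16). With no filter on low counts the log2 fold change was 0.75 ± 0.64 (adjusted p = 0.76). Ms4a7 lies on chromosome 19 from 11321039 to 11336146, minus strand.

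The lipid and carbonyl metabolism genes carried nearly all counts of the 9. Apoe encodes apolipoprotein E, which carries lipid out of macrophages. It had 711, 717 and 661 CPM in the C1q libraries and 773, 660 and 505 CPM in the Saline libraries. The C1q libraries lay close together, inside the wider Saline range. The means were 696 ± 31.0 CPM in C1q and 646 ± 135 CPM in Saline (SD, n = 3 each), a log2 fold change of 0.11 ± 0.18 (95% interval -0.28 to 0.50, adjusted p = 0.881). Without Saline replicate 3, the lowest library, it was -0.04. Apoe lies on chromosome 7 from 19696109 to 19699188, minus strand. Among its partners, the lipid transporter gene Abca1 averaged 82.8 ± 13.5 CPM in C1q and 71.8 ± 9.23 CPM in Saline, and the neighbouring apolipoprotein gene Apoc1 9.51 ± 1.14 and 17.0 ± 13.7 CPM, neither called (adjusted p = 0.749 and 0.651). Abca1 and Apoc1 were named after their values were seen.

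Cbr2 encodes carbonyl reductase 2, an enzyme abundant in mouse lung epithelium. It had 2793, 2921 and 1916 CPM in the C1q libraries and 2784, 3361 and 2215 CPM in the Saline libraries. The lowest library of each group was replicate 3 and the highest replicate 2, and the groups overlapped. The means were 2543 ± 547 CPM in C1q and 2787 ± 573 CPM in Saline (SD, n = 3 each), a log2 fold change of -0.13 ± 0.22 (95% interval -0.61 to 0.34, adjusted p = 0.881). It was 0.04 without C1q replicate 3 and 0.03 without Saline replicate 2. Cbr2 lies on chromosome 11 from 120729489 to 120732114, minus strand, and shares 14.2% of its 36-base stretches with Gm11771.

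Club cell genes, markers of the secretory airway epithelium, varied between the same libraries. Scgb1a1, the main secretory protein of club cells, had 7981 ± 2217 CPM in C1q and 13770 ± 7943 CPM in Saline (log2 fold change -0.79 ± 0.36, adjusted p = 0.606). Scgb3a1 stood at -1.32 ± 0.44 and Scgb3a2 at -0.24 ± 0.30 on that scale, neither called. The club cell list summed to 8730, 12090 and 7021 CPM in C1q and 12200, 24880 and 8971 CPM in Saline, highest in Saline replicate 2 and lowest in C1q replicate 3, as Cbr2 was. The alveolar type 2 list summed to 35780, 33980 and 33260 CPM in C1q and 31820, 45870 and 24330 CPM in Saline, with Sftpc, the surfactant protein C gene, not called (log2 fold change -0.06 ± 0.26, adjusted p = 0.963), nor Sftpb (0.17 ± 0.19) or Sftpd (0.44 ± 0.18). The part of epithelial RNA in the Cbr2 values was not tested.

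**Figure D2:**
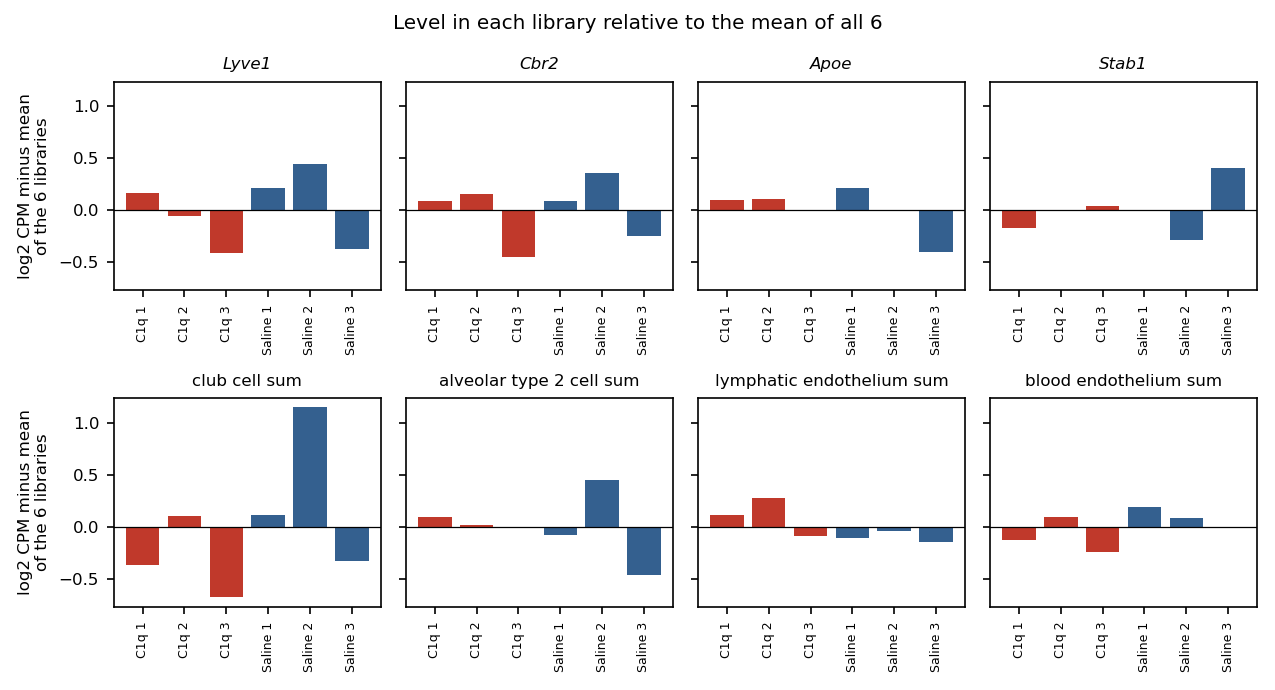
Level in each library as log2 CPM minus the mean over the 6 libraries (vertical axes), for Lyve1, Cbr2, Apoe and Stab1 above and for the summed club cell, alveolar type 2, lymphatic and blood endothelial lists below, C1q in red and Saline in blue. Cbr2, Lyve1 and the club cell sum are highest in Saline replicate 2 and lowest in C1q replicate 3, while Stab1 is lowest in Saline replicate 2 and highest in Saline replicate 3.

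The summed level of the 9 genes followed Cbr2. It was 3845, 3945 and 2834 CPM in C1q and 3921, 4433 and 2991 CPM in Saline, of which Cbr2 made up 67.6% to 75.8% and Cbr2, Apoe and Lyve1 together 97.4% to 98.4%. The log2 ratio of the group means was -0.09, and 0.05 without C1q replicate 3 and 0.04 without Saline replicate 2. Without the 3 most abundant genes, a sum chosen after seeing the data, the level was 59.7, 66.0 and 68.8 CPM in C1q and 72.5, 69.3 and 78.4 CPM in Saline, with all C1q libraries lower and the nearest 0.5 CPM apart. Stab1 was the most abundant gene in that sum.

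Per kilobase of exon, Cbr2 had 1916 CPM in C1q and 2100 in Saline, Apoe 326 and 302, and Lyve1 81.1 and 94.4. On the same scale Pf4 had 8.10 CPM per kilobase in C1q and 13.7 in Saline, Stab1 3.93 and 4.24, Folr2 2.58 and 1.61, and Cx3cr1 2.01 and 2.79. Ms4a7 had 0.689 in C1q and 0.424 in Saline, and Cd163 0.441 and 0.541. With 5′ reads a level may depend little on transcript length, so both scales are given. On both, Folr2, Cd163 and Ms4a7 lay far below Cbr2, Apoe and Lyve1. Which cells of the suspension the counts came from was not tested.

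**Figure D3:**
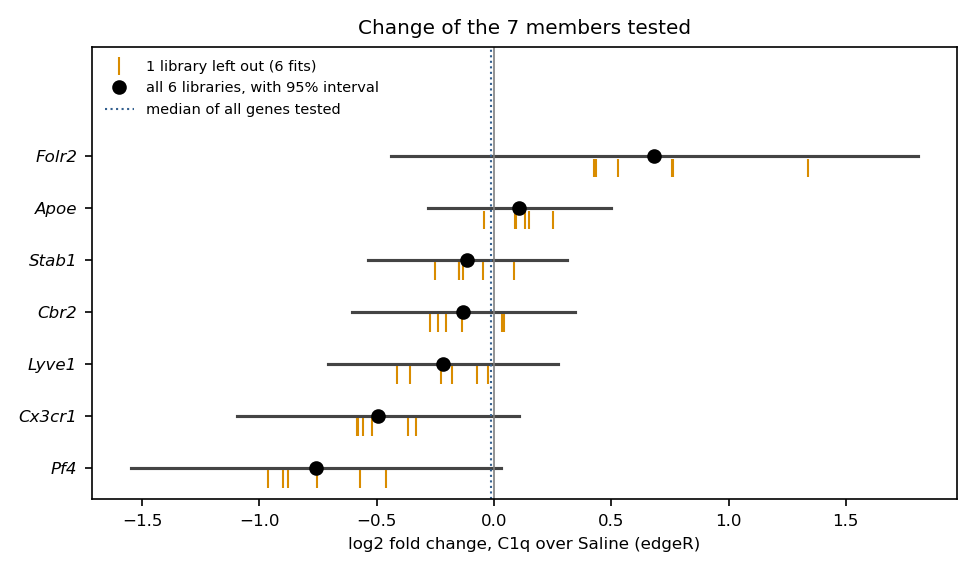
Log2 fold change of C1q over Saline (horizontal axis) for the 7 genes tested, as a black point with its 95% interval, with an orange tick for each of the 6 fits that leave out 1 library and a dotted line at the median of all genes tested. All 7 intervals include 0, and the ticks of Cbr2, Apoe and Stab1 lie on both sides of it.

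Other genes listed for interstitial macrophages, many not particular to them, were on average higher after C1q without passing the test. Of 28 such genes, 24 were tested and 0 passed. The log2 fold change was positive for 20 and negative for 4, with a median of 0.34 beside -0.01 for all genes tested. At an unadjusted p under 0.05 there were 8 higher, where 4.22% of all genes tested were higher at that level, and 11 had all C1q libraries above all Saline libraries, where 8.13% of all genes did. The 5 with the smallest p were C1qa and C1qc, chains of endogenous C1q, Cd14, a co-receptor for bacterial lipopolysaccharide, Igf1, an insulin-like growth factor, and Ccl7, a monocyte attractant. Cd14 averaged 254 ± 29.3 CPM in C1q and 153 ± 11.2 CPM in Saline (log2 fold change 0.73 ± 0.15, adjusted p = 0.277). Igf1 averaged 52.7 ± 11.5 and 27.1 ± 4.11 CPM (0.96 ± 0.20, adjusted p = 0.277), and Ccl7 75.1 ± 11.1 and 47.9 ± 6.93 CPM (0.65 ± 0.17, adjusted p = 0.415). C1qa stood at 1.05 ± 0.21 and C1qc at 0.87 ± 0.25 on the log2 scale (adjusted p = 0.231 and 0.484). This list was written with earlier results of these data known. Some of its genes, such as Cd14 and Csf1r, are also in the list of genes shared by mononuclear phagocytes, and Ccr2 is also in the classical monocyte list. Which cells the higher values came from was not tested.

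Within that list the resident-type markers most like the 9 genes were mixed, and are named after their values were seen. Mrc1, the mannose receptor shared by alveolar and Lyve1-high interstitial macrophages, averaged 87.6 ± 8.06 CPM in C1q and 69.3 ± 8.32 CPM in Saline (log2 fold change 0.34 ± 0.15, adjusted p = 0.606). Mertk, a receptor for dying cells, averaged 69.6 ± 6.61 and 73.9 ± 6.82 CPM (-0.09 ± 0.15, adjusted p = 0.887). Maf, a transcription factor of tissue macrophages, averaged 12.9 ± 2.38 CPM in C1q and 13.2 ± 2.93 CPM in Saline. Timd4 and Fcna, markers of self-renewing and of Lyve1-high macrophages, did not reach the filter on low counts, at 3.71 ± 1.88 CPM in C1q and 1.57 ± 0.448 CPM in Saline for Timd4 and 1.70 ± 0.786 and 0.764 ± 0.727 CPM for Fcna.

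Genes shared by mononuclear phagocytes were close to the other interstitial macrophage genes in their median. Of 14, 13 were tested and 0 passed, with 11 positive log2 fold changes and a median of 0.35. At an unadjusted p under 0.05 there were 4 of the 13, all higher, where 4.22% of all genes tested were higher at that level. All C1q libraries lay above all Saline libraries for 3 of the 13, where 8.13% of all genes tested did. The lists share Csf1r, Adgre1, Mertk, Fcgr1 and Cd14, so their medians are not independent. Adgre1, which encodes F4/80, averaged 24.5 ± 2.402 CPM in C1q and 14.5 ± 5.19 CPM in Saline (0.77 ± 0.26, adjusted p = 0.537), and Fcgr3 69.4 ± 20.6 and 44.1 ± 13.7 CPM (0.66 ± 0.26, adjusted p = 0.602). The list sum, most of it Lyz2, was 8420, 7870 and 7520 CPM in C1q and 7547, 9430 and 5688 CPM in Saline.

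Alveolar macrophage genes had 10 of 14 positive log2 fold changes with a median of 0.13, and 0 passed. At an unadjusted p under 0.05 there were 4 of the 14, all higher, where 4.22% of all genes tested were higher at that level. All C1q libraries lay above all Saline libraries for 4 of the 14, where 8.13% of all genes tested did. Their sum, most of it Chil3, was 3599, 3796 and 3104 CPM in C1q and 2200, 3112 and 1400 CPM in Saline, a log2 ratio of 0.65. Whether the interstitial list differed from these lists was not tested. Siglecf and Marco, surface receptors of these cells, averaged 22.6 ± 3.46 CPM in C1q and 22.1 ± 4.17 CPM in Saline, and 20.7 ± 8.15 and 22.9 ± 3.43 CPM. Slc7a2, an arginine transporter, had the smallest p at 64.8 ± 10.1 CPM in C1q and 46.0 ± 1.14 CPM in Saline (log2 fold change 0.49 ± 0.16, adjusted p = 0.531). Next were the chitinase-like Chil3 at 0.90 ± 0.29 and the proton pump subunit Atp6v0d2 at 0.53 ± 0.19. MHC class II genes, high in the Lyve1-low population, had 6 of 7 positive and 0 called, with a median of 0.25 and sums of 5124, 4262 and 4197 CPM in C1q and 4603, 3503 and 3081 CPM in Saline. Their regulator Ciita was the one with a negative value, at 12.4 ± 0.828 CPM in C1q and 17.5 ± 3.31 CPM in Saline (log2 fold change -0.50 ± 0.23, adjusted p = 0.606). Classical monocyte genes had a median of 0.07 with 0 of 7 called, Vcan having the smallest p (0.93 ± 0.40).

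**Figure D4:**
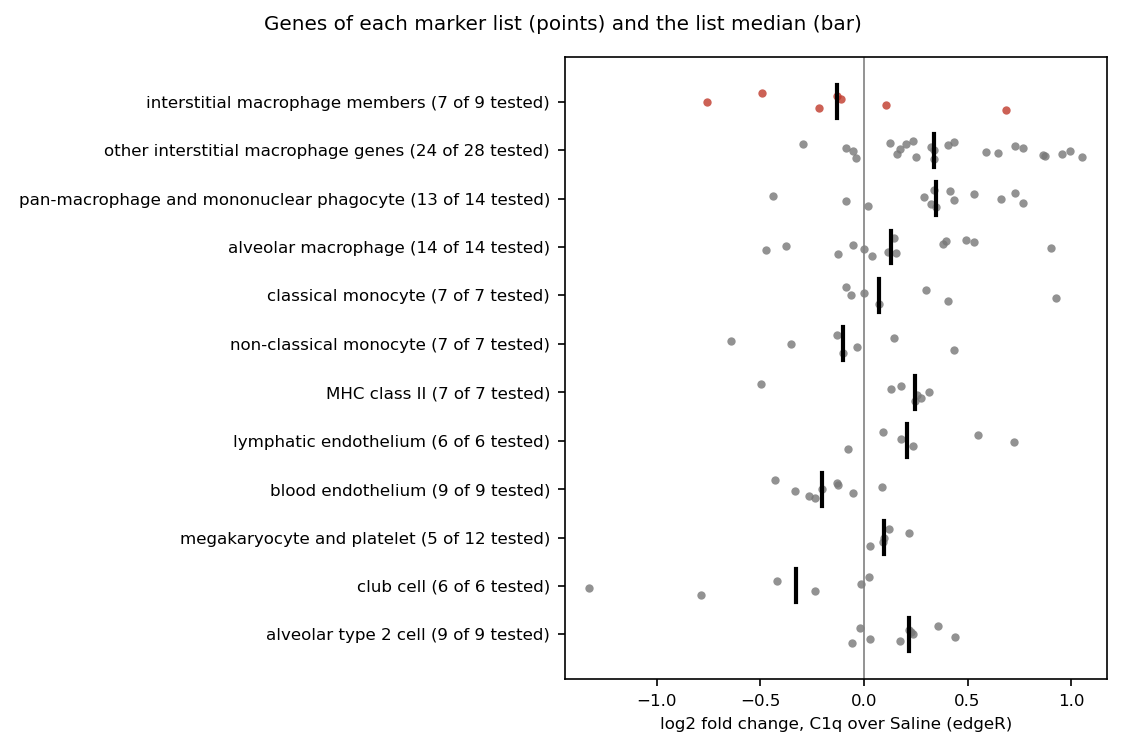
Log2 fold change of C1q over Saline (horizontal axis) for each tested gene of 12 marker lists (points, the 9 genes' list in red), with a black bar at each list's median. The red list has its median at -0.13, and the lists of other interstitial macrophage genes and of shared phagocyte genes at 0.34 and 0.35.

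Factors that maintain lung macrophages showed 12 positive and 6 negative values among 18 tested, and 0 passed. The growth factor genes Csf1 and Il34, which share the receptor Csf1r, averaged 38 ± 6.69 CPM in C1q and 44.6 ± 5.46 CPM in Saline, and 7.86 ± 0.229 and 10.4 ± 3.92 CPM. Their receptor gene Csf1r averaged 53.1 ± 8.85 CPM in C1q and 42.3 ± 5.67 CPM in Saline (log2 fold change 0.33 ± 0.18, adjusted p = 0.633). Csf2rb, the shared beta chain of the GM-CSF, IL-3 and IL-5 receptors, had the smallest p of the list, with 66.7 ± 6.98 CPM in C1q and 39.5 ± 1.70 CPM in Saline and no overlap (0.75 ± 0.15, adjusted p = 0.245). The transcription factor genes Spi1, which encodes PU.1, Bhlhe40 and Bhlhe41 stood at 0.42 ± 0.20, 0.29 ± 0.14 and 0.64 ± 0.33 (adjusted p = 0.607, 0.613 and 0.622). Csf1 and Il34 were named after their values were seen.

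Ligands, cargo and partners of the 9 gene products had 12 positive and 6 negative values among 18 tested, a median of 0.22 and 0 called. Besides Hmox1 and Has1, the smallest p-values included those of Sparc, a matrix glycoprotein that stabilin-1 clears, and Cd44, another hyaluronan receptor. Sparc averaged 2377 ± 308 CPM in C1q and 1530 ± 101 CPM in Saline (log2 fold change 0.64 ± 0.16, adjusted p = 0.41). Cd44 averaged 259 ± 16.8 CPM in C1q and 209 ± 8.22 CPM in Saline (0.31 ± 0.14, adjusted p = 0.606). For Hmox1, Has1, Sparc and Cd44, picked for their small p, all C1q libraries lay above all Saline libraries. In the whole list 7 of the 18 tested did, where 8.13% of all genes tested did. The receptors Cd163, Lyve1, Stab1 and Folr2, which were not picked by p, overlapped between the groups. Cx3cr1, also a receptor, did not overlap and was lower in every C1q library, where 5.96% of all genes tested were. Its ligand gene Cx3cl1 overlapped. Whether partners and receptors differed was not tested.

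Relatives of the 9 genes showed how far family members differed. In the Ms4a family, Ms4a6d averaged 26.7 ± 6.42 CPM in C1q and 13.1 ± 0.902 CPM in Saline (log2 fold change 1.03 ± 0.23, adjusted p = 0.293), and Ms4a4a 16.5 ± 2.41 and 8.38 ± 1.19 CPM (0.96 ± 0.25, adjusted p = 0.41), both with no overlap. The other Ms4a genes above 5 CPM were Ms4a4b at -0.17 ± 0.26, Ms4a4c at 0.37 ± 0.30, Ms4a6b at 0.39 ± 0.32, Ms4a6c at 0.10 ± 0.26, the B cell gene Ms4a1 at -0.25 ± 0.28 and Ms4a8a at 0.51 ± 0.32, all overlapping. Of the carbonyl reductases, Cbr1 stood at -0.18 ± 0.17, Cbr3 at 0.34 ± 0.24 and Cbr4 at -0.06 ± 0.32. Among chemokine genes and receptors related to Pf4 and Cx3cr1, Cxcl1 had 1.04 ± 0.17 (adjusted p = 0.136, the smallest of the relatives), Cxcl2 0.47 ± 0.26, Ppbp 0.09 ± 0.42, Ccr1 0.63 ± 0.17 and Ccr2 0.41 ± 0.26. In all, 18 of 23 relatives were tested and 0 passed, 14 with a positive and 4 with a negative log2 fold change. All C1q libraries lay above all Saline libraries for 6 of the 18, where 8.13% of all genes tested did.

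For each tested gene the 2 most similar profiles over the 6 libraries were taken from 7683 other genes at 20 CPM or more, by Pearson's r of log2 CPM. They were Akr7a5 and Lrrc41 for Folr2 (r = 0.990 and 0.987), Elof1 and Mrps14 for Lyve1 (0.995 and 0.994), and Gpc3 and Sri for Apoe (0.989 and 0.987). For Pf4 they were Emp2 and Vamp2 (0.993 and 0.989), for Stab1 Pde4d and Helz (0.998 and 0.993), for Cbr2 Gstm1 and Slc6a2 (0.986 and 0.982), and for Cx3cr1 Dixdc1 and Tap1 (0.979 for both). These are the highest values among 7683 candidates over 6 libraries that share their depth, and are a description only. No gene was shared between the 7 sets.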

How the data were processed

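The authors deposited whole-number counts per gene symbol and library, not normalized. The submitters' processing notes list the build GRCm38, Bowtie2 2.4.2 and cutadapt 2.1.0. No source used here gives the counting step, the strand handling or any use of molecular identifiers. Samples were grouped by treatment label (C1q n = 3, Saline n = 3) and numbered in order of deposition, so the numbers pair nothing. edgeR 4.0.16 (R 4.3.3) filterByExpr kept 13473 of 26890 genes. TMM scaling and glmQLFTest (two-sided, treatment only, Benjamini-Hochberg over all genes kept, threshold 0.05) gave the main values, and the code was tested on simulated data. Levels are CPM over TMM-scaled library totals, as mean ± SD. Intervals are 95%, from the standard error and the test's degrees of freedom. Alternatives were other scalings, DESeq2 1.42.0, limma-voom (limma 3.58.1), other filters and leaving out each library. Symbols of all 9 genes matched GENCODE M21 (GRCm38), which gave positions, exon lengths and 36-base comparisons, and promoters were those of RefSeq on GRCm38.p6.

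The 9 genes and all lists were chosen with earlier results of these data known. The rule named all 9 genes, up to 3 genes of each other list with the smallest p (5 for the other interstitial macrophage, partner and growth factor lists), the first 2 of the main cell type lists, relatives at a mean of 5 CPM or more, and the 2 most similar profiles. From lists described by counts and sums alone, fewer were named. Genes outside the rule are marked where they stand. Some genes that the rule names are not reported here. Lists for dendritic cells, fibroblasts and neutrophils were also measured, with median log2 fold changes of 0.22, 0.29 and 0.26 and 0 genes called.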

Additional observations from a re-analysis of the deposited data

How the results depend on the processing

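No paired analysis was possible because the replicate numbers were given in order of deposition and the labels pair no samples. In all alternatives run, 0 of the 9 genes were called. For Cd163 and Ms4a7 a fold change is given only with no filter, and Folr2 none with the stricter one. By library size alone, 1 of those of the 9 genes that were tested had an unadjusted p under 0.05. The count was also 1 without C1q replicate 2 or without Saline replicate 2, and 2 without Saline replicate 3. The share of all genes under 0.05 in these fits is not given here, and was 8.16% in the main fit. Signs turned for 3 genes, each near 0: Cbr2 without C1q replicate 3 (0.0414) and without Saline replicate 2 (0.0327), Apoe without Saline replicate 3 (-0.041) and Stab1 without Saline replicate 3 (0.0859). With 1 library left out Cbr2 ran from -0.272 to 0.0414, Apoe from -0.041 to 0.254 and Stab1 from -0.251 to 0.0859. The other 86 refits of single genes kept sign and call. The cause of the sign changes was not tested. The median of the genes tested ran from -0.27 without Saline replicate 3 to -0.03 without Saline replicate 2, and was -0.10 over all 9 with no filter. The log2 ratio of the summed level ran from -0.24 to 0.05 with 1 library left out, and was -0.18 without Cbr2, Apoe and Lyve1.

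The number of genes called over the whole table was 4 as reported, 3 or 4 with other scalings, limma-voom or the stricter filter (5 CPM in 3 libraries), 32 with DESeq2 (31 higher) and 373 with no filter (158 higher). With 1 library left out it was 0 to 10: 1 without C1q replicate 1, 2 without C1q replicate 2, 0 without Saline replicate 1 and 10 without Saline replicate 3. Depth limited Folr2, Cd163, Ms4a7, Pf4 and Cx3cr1, which had 3 to 46 counts per library.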
